A study of Mus musculus with 20 samples.

Results

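Leg muscle of 8-week-old mdx mice was compared with leg muscle of control mice of the same age on one-colour Affymetrix arrays, 5 arrays in each group. These 10 arrays were chosen by their titles from the 20 of the series, whose other 10 arrays are of extraocular muscle. Every cell of the mdx mouse carries a stop mutation in the dystrophin gene, Dmd; the control mice are the wild type of the series title, and the labels name no strain, sex, treatment or other allele for either group. The labels give gastrocnemius and soleus, the calf muscles, as the source of the control arrays and only leg muscle as the source of the mdx arrays. The arrays of the 2 genotypes also carry different descriptions, so any difference in muscle dissected, date or handling cannot be told apart from genotype. The labels do not say whether the 5 arrays of a group come from 5 animals, so the p-values below reflect only array-to-array spread, part of which may be technical.

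Dystrophin ties the actin skeleton of the muscle fibre to the matrix outside it through a complex of membrane glycoproteins. Without it, fibres are damaged when they contract, immune cells enter the tissue, satellite cells divide and fuse into new fibres, and matrix is laid down. In the hindlimb of mdx mice this cycle of necrosis and repair begins some weeks after birth and is well under way in young adults. The immune and matrix genes are the best known part of the response; the account below takes up the genes that fell, the moderate changes and the gene families around them.

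Dmd was dim. Its control arrays read 212, 138, 145, 149 and 100.2 and its mdx arrays 76.5, 64.6, 37.3, 126 and 83.4 (scaled signal, on which the trimmed mean of each array is 500). Only 1 of the 10 arrays reached 200, so Dmd was not among the probe sets tested; without that filter its log2 difference was -0.92 with a limma adjusted p = 0.0858. The groups overlapped, and whether the probe set covers the mutation is not known here. Muscle genes were bright on every array, with parvalbumin (Pvalb, the calcium buffer of fast fibres) between 14305 and 20213 in controls and between 10214 and 15401 in mdx arrays.

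A pair of control arrays stood apart, control 4 in single genes and control 1 more broadly. Control 4 had almost none of the slow-fibre myosin light chain Myl2, at 45.2 against 8608, 8722 and 11222 on controls 2, 3 and 5, while its signal for the salivary secretory gene Bpifa2 was 8892 against 78.1 to 828. It also had little of the limb position gene Hoxd8, at 94.9 against 737 to 1416 on the other controls. Control 1 had the most Myl2 (20215) and correlated least with the other controls (mean 0.893). Control 4 did not stand apart in this measure (0.906, against 0.904 for control 5). A principal component analysis of the 10 arrays separated the genotypes on its first component (41.9% of variance) and control 1 on the next (13.8%). The ratio of 3′ to 5′ signal of the control probe sets differed for beta-actin, with a log2 ratio of 0.50 ± 0.37 (SD, n = 5) in controls and -1.86 ± 1.25 in mdx arrays (exact two-sided permutation test over 252 splits, p = 0.0079, adjusted over both ratios 0.016), and not for Gapdh (-2.48 ± 0.84 and -2.50 ± 0.14, p = 0.93). A log2 ratio below 0 means more 5′ than 3′ signal, so these ratios are not read here as RNA length. The part of the beta-actin difference in the results was not tested. Results are given with all 10 arrays, and those of named genes whose call changed also without controls 1 and 4.

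Of 6408 probe sets tested, 990 (15.4%) passed a limma adjusted p of 5%, 619 (9.66%) higher and 371 (5.79%) lower in mdx muscle. Rises were the larger changes: 376 of them were at least 2-fold, against 43 of the falls (5.87% and 0.671% of probe sets). The falls were in brighter genes, with a median signal of 1352 against 714 for the rises and 588 for all tested probe sets. Read as genes through the brightest probe set of each, 503 of 4940 (10.2%) rose and 302 (6.11%) fell, and these shares are the background for every list count below. Without controls 1 and 4 the shares were 9.53% and 4.51%. The median log2 difference over all genes was -0.06, and 56.2% of genes lay below 0. The arrays of the 2 groups did not overlap for 15.6% of genes.

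**Figure D1:**
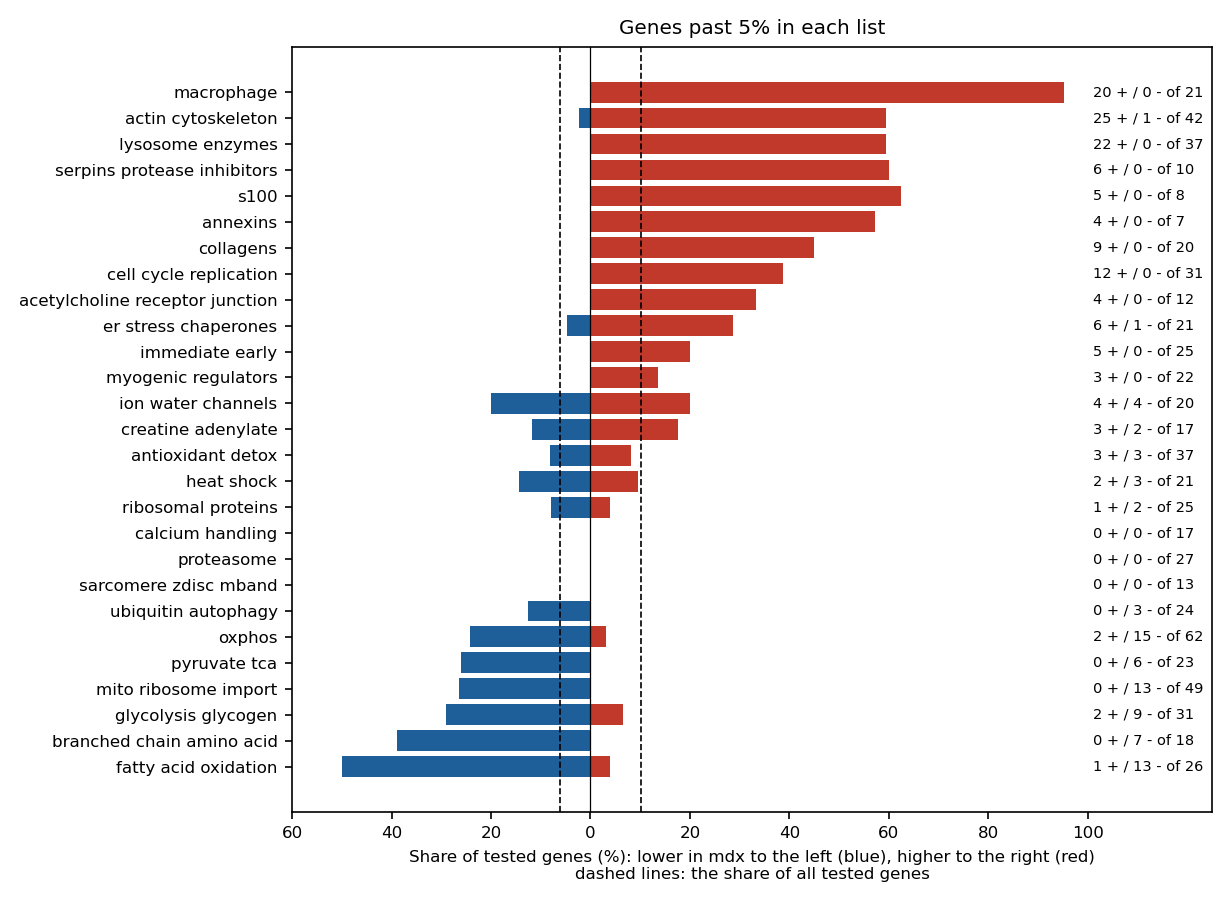
Share of the tested genes of 27 lists that passed 5% in limma, lower in mdx to the left and higher to the right, in percent; the counts stand at the right edge and dashed lines mark the shares over all 4940 genes (6.11% and 10.2%). Energy and mitochondrial lists extend to the left, led by fatty acid oxidation with 13 of 26, and cytoskeletal, lysosomal and macrophage lists to the right.

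Markers of macrophages, the main phagocytes of damaged muscle, moved with many of the rises. The summed signal of the 21 tested markers was 7036 to 9369 on control and 48513 to 64337 on mdx arrays, and 20 of them rose. Of the tested markers of other cell types, 0 of 5 lymphocyte, 0 of 2 mast cell, 0 of 7 adipocyte, 0 of 8 smooth muscle and 0 of 3 erythroid genes passed, and 1 of 4 neutrophil, 1 of 5 tendon and 1 of 14 endothelial genes did (S100a8 and Mgp higher, Flt1 lower). Of 4 gland genes 0 passed, and of 4 Schwann cell genes 1 rose (Egr2); Flt1 and Egr2 did not pass without controls 1 and 4. Outside these counts, probe sets of the immunoglobulin genes Ighm and Ighv1-54 fell with separate groups. Their log2 differences were -1.02 and -1.21 (limma adjusted p = 0.00413 and 0.0185). In whole muscle, more cells of a type and more RNA per cell cannot be told apart, and the part of the macrophage markers in the rises described below was not tested.

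Several water and ion channels of the fibre membrane fell. Aqp4, the water channel anchored to the dystrophin complex in fast fibres, read 1221, 3336, 2609.5, 3431 and 3277 on the control arrays and 657, 876, 364, 752 and 674 on the mdx arrays, so that even the low control 1 lay above every mdx array. It fell 4.08-fold (log2 -2.03, SE 0.29, limma adjusted p = 0.000426), and its second probe set gave a log2 difference of -1.56 (adjusted p = 0.00845). Aqp1, the water channel of capillary endothelium and other cells, fell 2.04-fold (adjusted p = 0.0027) with no overlap between groups. For Aqp7 and Aqp8 the log2 differences were -0.11 and -0.22, neither past the threshold. Clcn1, the chloride channel that steadies the resting potential of skeletal muscle and is mutated in myotonia, read 2364, 2867, 2734, 3379.8 and 2749 in controls and 1378, 2140.4, 665, 1600.2 and 836 in mdx arrays, a fall of 2.31-fold (adjusted p = 0.00798); the mdx arrays spread more than the controls. Clcn5, an endosomal relative, did the opposite: it was below the floor of 50 on all 5 control arrays and read 288, 379.6, 460.1, 416 and 427 on the mdx arrays, at least 7.79-fold higher (adjusted p = 1.22e-05). The other 4 chloride channel genes tested, read by their brightest probe set, had log2 differences from -0.26 (Clcn2) to 0.14 (Clcn7) and did not pass.

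The regulators of the sodium pump divided in the same way. Fxyd1 (phospholemman), the pump's partner in muscle, had mean signals of 9230.0 ± 2370.0 (SD, n = 5) in controls and 5653 ± 967 in mdx arrays, a fall of 1.62-fold (adjusted p = 0.022) that missed the threshold without mdx 3 and without controls 1 and 4 (0.0779). Fxyd5 (dysadherin), found in epithelia and immune cells, rose 5.08-fold from 162 ± 40.1 to 813 ± 118. Among the pump's beta subunits Atp1b3 rose 1.59-fold (adjusted p = 0.0161) and Atp1b2 had a log2 difference of 0.08. In the whole list of 20 ion and water channel genes, 4 rose (20%) and 4 fell, with a median log2 difference of -0.22; the fourth rise was the gap junction gene Gja1 (1.94-fold). Wnk2, a kinase that controls ion cotransporters, fell 1.87-fold on its brighter probe set (adjusted p = 0.000795), and the cotransporter Slc12a2 fell 1.61-fold (0.00762).

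**Figure D2:**
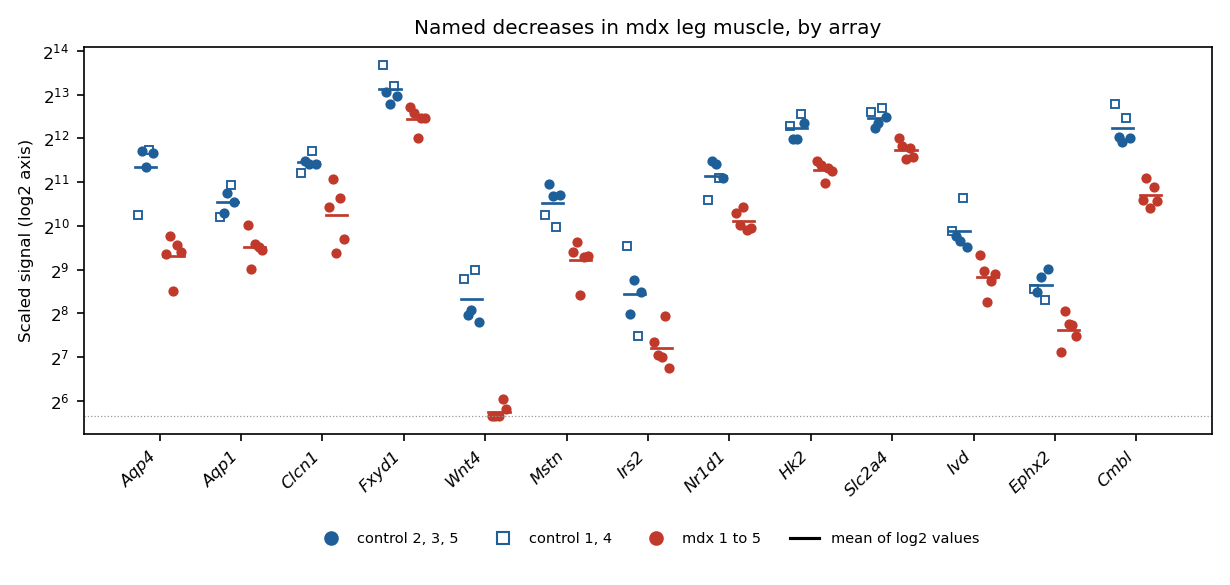
Scaled signal on each array (log2 axis) for 13 genes that fell in mdx muscle; values under 50 are drawn at 50 (dotted line), open squares are controls 1 and 4, and short bars are means of log2 values. For every gene but Irs2 the 5 mdx arrays lie below all 5 controls.

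Among secreted signals and their receptors there were single falls. Wnt4, a ligand of the Wnt family, read 444, 251, 270.2, 508 and 224 in controls and 33.1, 49.4, 45.7, 65.8 and 55.8 in mdx arrays, at least 5.95-fold lower (adjusted p = 0.000197), with mdx arrays at or near the floor. Of 19 Wnt pathway genes tested it alone fell, and Ccn4, a target of Wnt signalling, rose 2.77-fold on floored log2 values (adjusted p = 0.0178), a call that was lost without mdx 5. Mstn (myostatin), the secreted brake on muscle growth, read 1209.8, 1997, 1645, 1014 and 1658 against 679, 795, 345, 629 and 638, a fall of 2.46-fold (adjusted p = 0.00223) that was larger without controls 1 and 4 (log2 -1.56). Acvr2b, the receptor through which myostatin acts, fell 1.49-fold (adjusted p = 0.0224); this call was lost without control 2, control 3 or mdx 5. In the transforming growth factor beta family, 20 genes tested, the rises were Fstl1 (3.08-fold), Tgfbi (2.47-fold) and Tgif1 (1.79-fold). Follistatin (Fst), which binds and blocks myostatin, was too dim to test; its control arrays read 128, 81.5, 121, 24.9 and 33.2 and its mdx arrays 253, 189.8, 243, 139 and 203, all 5 of which lay above the controls (log2 1.34, adjusted p = 0.043 without the filter).

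Crhr2, the muscle receptor for urocortins, was also under the filter. Its control arrays read 231, 382, 454, 315 and 61.9 and its mdx arrays 29.3, 32.3, 27.0, 18.1 and 53.8, and without the filter the log2 difference was -2.24 (adjusted p = 0.0281). Ramp1, a subunit of the receptor for calcitonin gene-related peptide, fell 1.76-fold from 4636 ± 1291 to 2568 ± 166 (adjusted p = 0.00413). Of 5 adenylate cyclases, the enzymes that make cyclic AMP, Adcy9 fell on its brightest probe set (1.6-fold, adjusted p = 0.0061). Adcy2 had a log2 difference of -1.18 with an adjusted p = 0.0493 that was lost in 9 of 10 leave-one-array-out fits and without controls 1 and 4 (0.164). Adcy7, an isoform of blood cells, rose 3.12-fold on floored log2 values (adjusted p = 0.0344), a call lost in 4 such fits.

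Of 11 genes of the insulin-like growth factor axis 3 rose and 1 fell. Only 2 rose in each of the 10 fits without 1 array and without controls 1 and 4. Igf2, a fetal growth factor, rose 3.07-fold from 1851 ± 225 to 5704 ± 909.9 (adjusted p = 5.22e-06). Igf1 on its brightest probe set read 2128 ± 398 and 1960.2 ± 349.7 (log2 -0.12), but its second probe set gave a log2 difference of 1.08 (adjusted p = 0.0326), lost in 5 of 10 leave-one-array-out fits, so its direction is uncertain. Irs2, an adaptor of the insulin receptor, was lower at 155 ± 53.6 against 394 ± 218 (adjusted p = 0.0368) with overlapping groups, and its call was lost in 7 such fits. Pdgfra, the growth factor receptor of fibro-adipogenic progenitors, rose 2.51-fold (adjusted p = 0.000358). In the same growth factor list, 20 genes tested, 4 rose and 2 fell, but without mdx 3 there was 1 rise, and without control 4, control 5, mdx 2 or mdx 4 there were 2 rises. No fall passed without control 2, 3 or 4 or without mdx 2, 3, 4 or 5, and 1 passed without control 5.

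The clock and nuclear receptor lists held few calls. Nr1d1 (REV-ERB alpha), a repressor in the circadian clock that also favours mitochondrial content in muscle, read 1538, 2849, 2732, 2197 and 2189 in controls and 1254, 1032, 1378, 954 and 998 in mdx arrays. It fell 2.02-fold (adjusted p = 0.00152), the 1 call among 14 clock genes, with log2 differences of -0.32 for its relative Nr1d2, -0.38 for Arntl, -0.35 for Cry1 and -0.15 for Per3. Per1 had a log2 difference of 0.41 (adjusted p = 0.323) and passed only without controls 1 and 4 (0.75, 0.0231). The labels give no time of day for either group, so its part in these values was not tested. Esrra, an orphan receptor that drives mitochondrial genes, fell 1.52-fold (adjusted p = 0.0178), and Ppara, a receptor for fatty acids, stood at -0.54 with an adjusted p = 0.0595. Of 18 genes in that list 15 were below 0 and 2 passed, a share of 11.1%.

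Glucose handling fell at its entry. Slc2a4 (GLUT4), the insulin-responsive glucose transporter, read 6223, 4815, 5235, 6598 and 5749 in controls and 4132, 3615, 2936, 3505 and 3068 in mdx arrays (1.66-fold lower, adjusted p = 0.00269). Hk2, the muscle hexokinase that traps glucose in the cell, read 5027, 4079.5, 4039, 5992 and 5196 against 2881, 2673, 2027, 2557 and 2461 (1.92-fold lower, adjusted p = 0.000629). In both the groups were clearly apart, whereas Hk1, the general hexokinase, read 5540.0 ± 871 and 6423 ± 2264 (log2 0.14). Gyg (glycogenin, the primer of glycogen) fell 1.55-fold, Phkg1 (the catalytic subunit of muscle phosphorylase kinase) 1.6-fold, and Gpd2 (the mitochondrial glycerophosphate shuttle) 1.61-fold; the Phkg1 call was lost without mdx 3. Altogether 9 of 31 genes of glycolysis and glycogen fell, against 6.11% of all genes, and the count was 5 without mdx 4 and 8 without controls 1 and 4, 5 of them among the 9. Pfkm, Gys1, Ugp2 and Fbp2 were among the falls but did not pass without controls 1 and 4 (adjusted p = 0.0799, 0.107, 0.0733 and 0.146).

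Both rises of the glucose list were enzymes of the pentose phosphate branch. Tkt (transketolase) read 224, 351, 479, 83.5 and 109.6 in controls and 638, 596, 862, 892 and 1035 in mdx arrays, 3.88-fold higher (adjusted p = 0.0062). Pgd, the enzyme that makes NADPH from 6-phosphogluconate, rose 1.47-fold (adjusted p = 0.0205, 0.0508 without controls 1 and 4, and lost without control 2), and Taldo1 had a log2 difference of 0.33 (adjusted p = 0.09). The macrophage markers rose on the same arrays; their part was not tested.

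Fat oxidation was the list with the largest share of falls, 13 of 26 genes, with a median log2 difference of -0.47, and it held 9 falls without controls 1 and 4. Counts without a single array were 7 without control 1, 8 without control 2 or 3, 6 without mdx 3 and 7 without mdx 5. Ech1 and Eci1, which move double bonds in unsaturated acids, fell 1.64-fold and 1.7-fold (adjusted p = 0.00222 and 0.00283). Hadh, a dehydrogenase of the spiral for shorter chains, fell 1.68-fold and Crat, which exchanges acyl groups between carnitine and coenzyme A, 1.64-fold. Etfa, the electron carrier of the pathway, fell 1.38-fold and Cpt2, the inner carnitine transferase, 1.38-fold, a call lost without mdx 3. The individual changes were moderate, from 1.38-fold to 2.07-fold in these 7 genes including Ivd, and in none of them did the groups overlap.

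Cpt1a was the exception. This outer carnitine transferase is the form of liver and blood cells, while muscle fibres use Cpt1b. Its control arrays read 151, 66.4, 114, 312 and 111 and its mdx arrays 565, 802, 945, 824 and 955, 6.12-fold higher (adjusted p = 0.000187). Among the fibre's uptake genes for fat, Slc27a1, a fatty acid transporter, read 456, 400.3, 761, 364 and 504 in controls and 338, 54.6, 267, 255 and 169 in mdx arrays, 2.61-fold lower (adjusted p = 0.043). That call was lost in 8 of 10 leave-one-array-out fits and without controls 1 and 4 (0.0769). The others stood at -0.46 (Cd36, adjusted p = 0.0679), -0.58 (Lpl, 0.0863) and -0.40 (Fabp3, 0.138).

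Breakdown of branched-chain amino acids showed moderate falls. Ivd (isovaleryl-CoA dehydrogenase, of leucine) read 987 ± 342 in controls and 471 ± 124 in mdx arrays, with no overlap, 2.07-fold lower (adjusted p = 0.00798). Bckdhb, a subunit of the rate-setting dehydrogenase complex, fell 1.7-fold (0.00645), Mcee, an epimerase of the valine and isoleucine branch, 1.8-fold (0.0058) and Oxct1, which activates ketone bodies, 1.58-fold (0.00566). In all 7 of 18 fell and none rose; 4 fell without controls 1 and 4, when Bckdha, Auh and Hsd17b10 stood at adjusted p = 0.0562, 0.0562 and 0.0704.

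Peroxisomal genes, a set put together after the values were seen, gave 10 falls and no rise among 24 tested. Phyh, which starts the breakdown of branched phytanic acid, read 4177 ± 681 in controls and 2314 ± 564 in mdx arrays (1.84-fold lower, adjusted p = 0.00567). Pxmp2, a membrane pore, fell 1.63-fold, Abcd3, a transporter of fatty acids, 1.53-fold, and Gnpat, which starts ether lipid synthesis, 1.66-fold. All 10 also passed without controls 1 and 4. The 8 tested Pex genes, which build the organelle, were all below 0 (log2 -0.52 to -0.04) and none passed, though 2 did without controls 1 and 4 (Pex2 and Pex11a), and catalase (Cat) stood at -0.24.

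In lipid synthesis and transport 4 of 27 genes rose and 3 fell, with a lowest log2 difference of -1.09. Some of the falls named below lay outside this list, Ces1d among them. Lpin1 (lipin 1), a phosphatidate phosphatase and coactivator whose loss damages muscle, fell 1.92-fold from 3421 ± 481 to 1802 ± 391 (adjusted p = 0.00198). Ephx2, the soluble epoxide hydrolase, fell 2.02-fold (0.00789), Retsat (retinol saturase) 1.97-fold (0.00145) and Abcb4, a phospholipid transporter, 2.02-fold (0.00367). Ces1d, a lipase of fat-storing cells, read 531, 289.8, 383, 1279 and 355 in controls and 8.85, 62.2, 13.4, 113 and 126 in mdx arrays, at least 6.55-fold lower (adjusted p = 0.000795); its probe set is of a kind that can match several related genes. None of the 7 adipocyte markers passed, with summed signals of 2655 to 10085 in controls and 4297 to 11100.1 in mdx arrays. Genes of cholesterol export rose instead: Apoe 6.49-fold, Abca1 3.9-fold and Pltp 4.11-fold, all at an adjusted p of 0.000951 or less and all with separate groups.

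**Figure D3:**
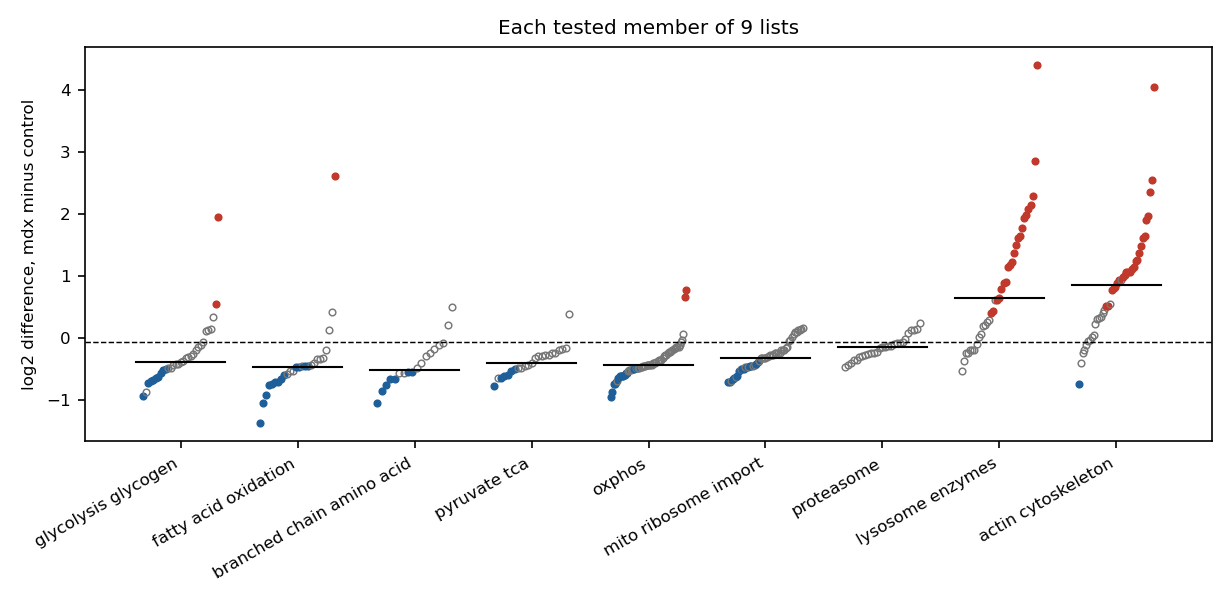
The log2 difference (mdx minus control) of each tested member of 9 lists, ordered by value within a list; filled points passed 5% in limma (blue lower, red higher), black bars are list medians and the dashed line is the median of all genes (-0.06). Most members of the energy lists lie below the dashed line by less than 1 log2 unit, with Tkt and Cpt1a far above, whereas the lysosome and actin lists spread upward.

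The respiratory chain was lower almost throughout by a small amount. Of 62 oxidative phosphorylation genes 59 lay below 0, with a median log2 difference of -0.43, and 15 fell past the threshold. The summed signal was 399965 to 646282 on control and 294922 to 386111 on mdx arrays. Complex I held most of the calls: 10 of its 26 tested subunits fell, and all 26 lay below 0 (median -0.48). Complexes II, III, IV and V had 1 of 4, 1 of 8, 2 of 10 and 1 of 13 falls. The count changed with the arrays included: 4 of the 15 passed without controls 1 and 4, when the median was -0.27. Every single omission lowered the count, to between 6 and 13. It was 9 without control 1, control 2 or mdx 4, 8 without control 4 or mdx 5, and 6 without mdx 3. Leaving out arrays also lowers the power of the test. Slow-fibre markers, which mark fibres rich in mitochondria, summed to 15572 to 116738 on control arrays, with control 1 highest and control 4 lowest, and to 30719.6 to 53091 on mdx arrays; their part in this shift was not tested. The falls that stayed were Atp5e (1.84-fold, adjusted p = 0.0013), Uqcrc1 (1.53-fold, 0.0058), Ndufs4 (1.93-fold, 0.0225) and Sdha (1.53-fold, 0.0193), of which Ndufs4 was lost without control 2, control 3 or mdx 3 and Sdha without mdx 3.

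A pair of respiratory genes rose against the rest. Cox6a1, the general form of a cytochrome oxidase subunit, read 2282, 2167, 2379, 2879 and 2107 in controls and 3015, 3858, 4144, 4767 and 4508 in mdx arrays (1.71-fold higher, adjusted p = 0.00284), while the muscle form Cox6a2 read 6623 ± 2384 and 5695 ± 1261 (log2 -0.17). Atpif1, the inhibitor of the ATP synthase, rose 1.58-fold (adjusted p = 0.00413). Both kept their calls without controls 1 and 4.

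Mitochondrial import and ribosome genes fell in similar measure. Of 49 genes 13 fell and none rose (median -0.32), with 8 falls without controls 1 and 4, 8 without control 2 or mdx 1, and 7 without mdx 5. The import genes Timm8b, Timm17a and Timm23 fell 1.53-fold, 1.57-fold and 1.42-fold (adjusted p = 0.00423, 0.00945 and 0.018) and passed without controls 1 and 4. So did the ribosomal genes Mrpl11 (1.44-fold) and Mrpl15 (1.37-fold). The cytosolic ribosome differed: 2 of 25 ribosomal protein genes fell (8%, against 6.11% of all genes) and 1 rose (4%, against 10.2%). There was 1 fall without control 1, 2, 4 or 5 or without mdx 3, 4 or 5, and there were 3 without mdx 1. Of the tricarboxylic acid cycle, 6 of 23 genes fell, of which Idh3a (1.43-fold, adjusted p = 0.00734) and Sdha passed without controls 1 and 4. Mitochondrial genes outside the lists, named after their values were seen, fell too: Coq9, needed for ubiquinone synthesis, 1.82-fold (0.00739), and Mfn1, which fuses the organelles, 1.6-fold (0.00385).

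Nucleotide and creatine metabolism divided. Adssl1 (adenylosuccinate synthetase of muscle) read 12191, 10545, 10539.6, 11551 and 11106 in controls and 7127, 6629, 5934, 6876 and 5904 in mdx arrays, a fall of 1.72-fold with little spread in either group (adjusted p = 0.000629). Adsl, the next enzyme of the purine nucleotide cycle, fell 1.65-fold (0.0041), whereas Pnp, which breaks down purine nucleosides, rose 2.45-fold (0.00134). Gatm and Gamt, which together make creatine and are little used by resting muscle, rose 5.38-fold and 1.78-fold (adjusted p = 4.74e-05 and 0.00247). Gatm read 127, 301, 382, 339 and 218 in controls and 1457, 1264, 1033, 1491 and 1714 in mdx arrays, while the creatine transporter Slc6a8 had a log2 difference of -0.36 (adjusted p = 0.0761). Psat1, of serine synthesis, and Mthfd2, of mitochondrial folate metabolism in dividing cells, were noticed after the values were seen and rose 5.4-fold and 4.15-fold (adjusted p = 0.000432 and 3.36e-05). In haem synthesis Alas1 fell 1.6-fold and Alad 1.56-fold (0.00673 and 0.00159). The polyamine genes Sat1 and Azin1 rose 2.4-fold and 1.61-fold, the calls among 4 tested.

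Metallothioneins, small proteins that bind zinc and copper and are induced through metal response elements, were among the brightest rises. Mt2 read 2583, 1684, 1593, 2011 and 2088 in controls and 11873, 10899, 6617, 9470.3 and 13209.8 in mdx arrays, 5.17-fold higher (adjusted p = 3.39e-06), and Mt1 read 2013, 893, 987, 1039.6 and 851 against 6377, 2686, 5511, 3181 and 3634, 3.7-fold higher (0.000417). Mt3, the brain form, read 1844 ± 549.7 and 2469 ± 487 (log2 0.44, adjusted p = 0.151). Mt1 and Mt2 are neighbours on chromosome 8. Their promoters are shown because they rose together; each run is the 250 bases before the start of transcription from RefSeq (GRCm38.p6), 5′ to 3′ on the plus strand, with each match to the metal response core TGCNCNC on either strand in capitals.
Mt1, chr8:94178839-94179088: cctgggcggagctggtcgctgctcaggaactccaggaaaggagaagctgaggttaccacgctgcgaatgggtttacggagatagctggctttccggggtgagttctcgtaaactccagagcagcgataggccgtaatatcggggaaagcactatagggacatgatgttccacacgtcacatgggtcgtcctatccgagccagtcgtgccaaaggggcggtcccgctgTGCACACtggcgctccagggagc
Mt2, chr8:94172368-94172617: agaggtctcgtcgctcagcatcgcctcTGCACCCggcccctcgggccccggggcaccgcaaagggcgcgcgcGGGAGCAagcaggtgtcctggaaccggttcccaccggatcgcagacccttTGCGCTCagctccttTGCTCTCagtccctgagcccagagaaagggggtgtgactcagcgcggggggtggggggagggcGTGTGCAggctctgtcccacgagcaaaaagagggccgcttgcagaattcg
The Mt1 window held 1 match, 23 bases before the start, and the Mt2 window 5, from 223 to 50 bases before it. Bases after the RefSeq start were not searched, so these are counts for the windows and not for the whole promoters. The core is short, and 47.2% of 27025 genes had at least 1 match in the same window, but 5 or more matches were found in 0.392%. Mt3 had 1 match. The matches are a description of the letters and not evidence of binding.

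**Figure D4:**
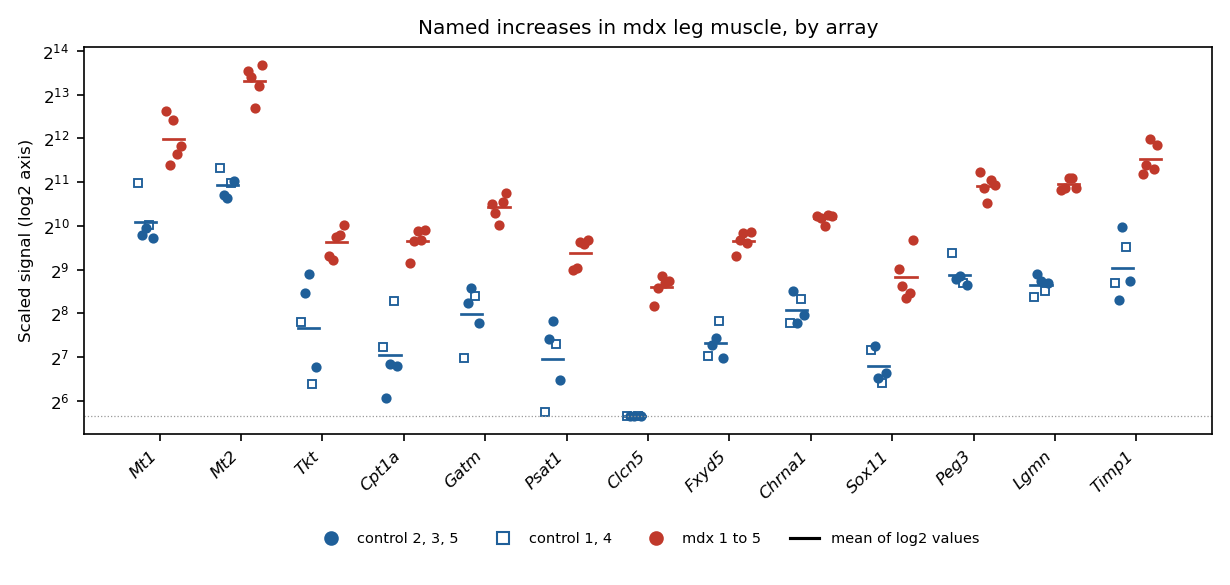
Scaled signal on each array (log2 axis) for 13 genes that rose in mdx muscle outside the main immune and matrix set; values under 50 are drawn at 50 (dotted line), open squares are controls 1 and 4, and short bars are means of log2 values. In all 13 the 5 mdx arrays lie above the 5 controls, and Clcn5 is at the floor on every control array.

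Other stress genes did not move together. Of 37 antioxidant and detoxification genes 3 rose and 3 fell, near the background shares, with 1 rise without mdx 3 and 5 falls without control 5. Txn1 (thioredoxin) rose 1.53-fold (adjusted p = 0.00999), while Mgst3, a glutathione transferase of the fibre's membranes, fell 1.72-fold (0.0108) and Hmox1, the haem oxygenase, had a log2 difference of -0.29. Of 25 immediate early genes 5 rose, among them Junb (at least 4.12-fold), Btg1 (2.3-fold), Gadd45a (1.93-fold) and Klf6 (1.84-fold). In the heat shock list Hsp90aa1, the inducible HSP90, rose 2.49-fold (0.00449) and the cochaperone Dnajb4 fell 1.72-fold (0.0125).

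The secretory pathway rose in part. Sec61a1, the channel into the endoplasmic reticulum, rose 1.99-fold (adjusted p = 0.00383), Hspa5 (BiP, its main chaperone) 1.76-fold (0.0058) and Xbp1, a factor of the unfolded protein response, 1.7-fold (0.00702). Atf4, a factor of another arm of the response, fell 1.45-fold from 6895 ± 795 to 4733 ± 360.4 (0.0087). In this list 6 of 21 rose and 1 fell; without mdx 3, mdx 4 or mdx 5 there were 3 rises. A wider set of translocation and vesicle genes, put together after the values were seen, had 17 rises and 1 fall among 45, and 14 rises without controls 1 and 4.

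Lysosomal genes rose broadly, 22 of 37 with none falling, and 19 without controls 1 and 4. Lgmn (legumain), an asparagine-specific protease, read 333, 476, 430.4, 364 and 416 in controls and 1812, 1877, 2183, 2202 and 1853 in mdx arrays, 4.94-fold higher with tight groups (adjusted p = 1.31e-07). The cathepsins differed in size: Ctss, the form of antigen-presenting cells, rose 21.2-fold, Ctsz 4.39-fold, Ctsc 3.95-fold, Ctsh 3.14-fold, Ctsl 2.35-fold, Ctsa 2.2-fold and Ctsb 1.88-fold, while Ctsd had a log2 difference of -0.25 (adjusted p = 0.631). Enzymes that break down sugars and lipids rose as well, with Lipa (acid lipase) 7.25-fold on floored log2 values, Man2b1 (alpha-mannosidase) 3.42-fold, Gusb (beta-glucuronidase) 2.82-fold and Hexa (hexosaminidase) 1.73-fold. Of 12 proton pump genes, a family put together after the values were seen, 4 rose and 6 lay below 0; 2 rose without controls 1 and 4. Atp6v1a, the catalytic subunit, rose on all 3 of its probe sets (1.89-fold on the brightest, adjusted p = 0.000728). The macrophage markers rose on the same arrays, and 2 of the tested lysosomal genes are themselves in that marker list.

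Many lysosomal promoters hold the CACGTG element that TFE3 and TFEB read, so the 250-base windows were searched for it; it reads the same on both strands. Of 31 lysosomal genes with a window 7 (22.6%) held it, against 10.9% of 4004 tested genes and 6.86% of all 27025. Of the lysosomal genes that rose, 4 of 18 held it (22.2%). Stretches of those 4 are shown with the element in capitals, read toward the gene; Glb1 did not pass without controls 1 and 4 (adjusted p = 0.0513).
Ctsa, chr2:164833744-164833772, plus strand, 12 bases before the start: aacaatgagcaaactgtCACGTGatgcag
Ctsl, chr13:64370734-64370770, minus strand, 236 bases before the start: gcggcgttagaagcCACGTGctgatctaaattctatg
Lgmn, chr12:102439119-102439158, minus strand, 49 bases before the start: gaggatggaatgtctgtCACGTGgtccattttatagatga
Glb1, chr9:114401013-114401052, plus strand, 48 bases before the start: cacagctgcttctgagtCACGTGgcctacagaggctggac
Among the lysosomal genes that did not pass, Ctsd, Ctsf and Naglu held the element. Over all genes that rose and fell the share with it was 10.6% and 9.96%, near that of the tested genes. Over the same genes the other motifs were also near the share of tested genes. TGANTCA (read by AP-1) stood in 8.62% of the windows of genes that rose and 6.37% of those that fell against 6.19%. AGGTCA (a site of nuclear receptors) stood in 15.5% and 15.9% against 13.3%, and GAGGAA (the core read by PU.1) in 29.3% and 20.7% against 26.0%. Within single lists some shares were further away. GAGGAA stood in the windows of 7 of 14 tested macrophage markers. AGGTCA stood in 22.7% of fatty acid oxidation and 14.0% of oxidative phosphorylation genes. TGANTCA stood in 2.78% of actin cytoskeleton and 4.55% of immediate early genes. These shares are descriptions without a test.

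The actin cytoskeleton was the list with most rises, 25 of 42, and 23 without controls 1 and 4. The thymosins, which hold actin monomers, were very bright: Tmsb10 rose 5.12-fold from 1866 ± 452 to 9439 ± 1867 and Tmsb4x 2.17-fold from 3903 ± 306 to 8526 ± 1309 (adjusted p = 3.16e-06 and 0.000106). Actr3 and Arpc2, of the complex that branches actin, rose 3.14-fold and 2.09-fold, and Lcp1, an actin bundler of white blood cells, 16.6-fold. The cofilins, which sever filaments, differed: Cfl1, the general cofilin, rose 2.39-fold (adjusted p = 0.000372), while Cfl2, the muscle cofilin, had a log2 difference of -0.40 (adjusted p = 0.145). Pfn2, a profilin, was the list's fall, 1.66-fold lower (adjusted p = 0.0051), and Pfn1 stood at -0.05. Twf2, a twinfilin outside the list that was named after its values were seen, fell 1.99-fold from 4836 ± 835 to 2447 ± 498 (0.00159).

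Of 9 tubulin genes 3 rose and 1 fell. Tubb5, Tubb2a and Tuba1c rose 3.31-fold, 3.76-fold and 2.48-fold (adjusted p = 8.04e-06, 1.04e-05 and 0.00428), and Tuba8, the form of striated muscle and testis, fell 1.43-fold (0.0201; lost without control 2 or mdx 3). Tubulin genes are alike in sequence, so their probe sets may share signal. Stmn1, which disassembles microtubules in dividing cells, rose 5.68-fold on floored log2 values (0.000554), and Nes (nestin), the intermediate filament of young fibres and junctions, rose 1.89-fold from 1204 ± 115 to 2303 ± 448 (0.000843).

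Annexins, which bind membranes in the presence of calcium and gather at sites of membrane repair, rose selectively. Anxa1 read 506, 869, 819.9, 988 and 836 in controls and 3388, 4253, 5030.2, 4904 and 5602 in mdx arrays, 5.82-fold higher, and rose on all 3 of its probe sets (adjusted p = 1.57e-06). Anxa2, Anxa4 and Anxa5 rose 2.84-fold, 2.78-fold and 2.33-fold. The other 3 did not pass, with log2 differences of 0.70 for Anxa3, -0.11 for Anxa6 and -0.33 for Anxa7. Of 8 S100 calcium-binding genes 5 rose: S100a4 7.47-fold, S100a6 3.34-fold, S100a8 2.65-fold, S100a13 2.24-fold and S100a10, the partner of Anxa2, 1.97-fold. The last was at an adjusted p = 0.0636 without controls 1 and 4, and S100a1, the form of muscle fibres, stood at -0.18.

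Inhibitors of proteases rose, 6 of 10 with no fall. Timp1, which blocks matrix metalloproteinases, read 579 ± 281 in controls and 3048 ± 756 in mdx arrays (5.63-fold higher, adjusted p = 6.05e-05). Cstb, an inhibitor of cathepsins, rose 2.85-fold (4.82e-06), Serpina3n 3.57-fold (0.000151) and Serpinb6a 2.79-fold (0.000216). Mgp, the matrix inhibitor of calcification, rose 3.02-fold from 988 ± 136 to 2973 ± 335 (3.68e-06).

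Of 22 genes of muscle formation 3 rose (13.6%, against 10.2% of all genes) and none fell. Myog (myogenin), the regulator of differentiation, read 922, 606, 485, 418 and 352 in controls and 1873, 1793, 1449, 1342 and 1278 in mdx arrays, 2.91-fold higher (adjusted p = 0.000538), whereas Myod1 and Myf6 had log2 differences of 0.23 and -0.33. Sox11, a factor of immature cells, rose 4.06-fold (0.000478) and Id2, an inhibitor of such regulators, 5.08-fold (0.000201); these 3 were the calls among 22. Six2 and Six4, homeobox genes of the muscle lineage, were lower by 1.72-fold and 1.7-fold (adjusted p = 0.0342 and 0.0136); the pair was noticed after the values were seen, the Six2 call was lost in 6 of the 10 fits without 1 array and without controls 1 and 4 (0.138), and the other 2 probe sets of Six4 did not pass. Of 7 embryonic fibre genes 3 rose (42.9%) and none fell, with 2 rises without controls 1 and 4. Among the 7, Tnnt2, a cardiac troponin made in young fibres, rose 4.69-fold (3.34e-06). Myh3, the embryonic myosin, read 607 ± 128 in controls and 383 ± 202 in mdx arrays (log2 -0.83, adjusted p = 0.131).

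Of 12 genes of the nerve-muscle junction 4 rose and none fell. Chrna1, the alpha subunit of the acetylcholine receptor, read 219, 362, 221, 319 and 249 in controls and 1207, 1165, 1020.2, 1214 and 1198 in mdx arrays, 4.32-fold higher (adjusted p = 2.89e-06), Chrnb1 rose 1.74-fold (0.0141) and Ncam1, an adhesion molecule of young and denervated fibres, 1.67-fold (0.00422). The fetal subunit Chrng stood at 1.49 with an adjusted p = 0.0558, and Chrnd, too dim for the filter, at 1.29 (0.176). Of 10 imprinted genes that act on growth 4 rose, and 3 in 9 of the 10 fits without 1 array, among them Peg3 4.15-fold on its brighter probe set, Mest 4.04-fold and Igf2 3.07-fold, while Dlk1 read 577 ± 51.5 and 605 ± 142. Cell cycle genes rose in 12 of 31 cases (10 without controls 1 and 4), led by Cks1b (at least 7.55-fold), Ccna2 (4.97-fold), Mcm5 (4.1-fold) and Cdk1 (3.21-fold), and none fell.

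Of 11 genes in the dystrophin complex list 3 fell (27.3%, against 6.11% of all genes) and none rose, with a median log2 difference of -0.05. The list and this share include the calpain Capn3, which is not part of the complex. Sgca (alpha-sarcoglycan) fell 1.53-fold from 3943 ± 334 to 2598 ± 363 (adjusted p = 0.00509) and Dag1 (dystroglycan) 1.32-fold from 4086 ± 194 to 3101 ± 214 (0.0203); both passed without controls 1 and 4. Dag1 was lost without control 2 or mdx 4, and without control 2 the list of 11 held 1 fall in place of 3, and 1 rise. Utrn (utrophin), the relative that can stand in for dystrophin, read 218, 169, 256, 181 and 131 in controls and 324, 160.4, 291, 314 and 240.3 in mdx arrays (log2 0.47, 95% interval -0.12 to 1.06, adjusted p = 0.283). Capn3, the muscle calpain, was the remaining call, 1.65-fold lower (adjusted p = 0.0458), lost in 7 of the 10 fits without 1 array and without controls 1 and 4 (0.133).

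Contractile and calcium-handling genes gave almost no calls. None of 13 sarcomere genes and none of 17 calcium-handling genes passed limma, with log2 differences from -0.52 to 1.29 and from -0.84 to 0.44. At an unadjusted p under 0.05 there were 2 and 3. Among fast-fibre markers Tnni2 alone fell (1.38-fold, adjusted p = 0.046); it was lost in 7 of the 10 fits without 1 array and without controls 1 and 4 (0.134). The spread among controls was wide: Casq1, the calcium store protein, ran from 2562 to 25181 on control and from 1654 to 11059 on mdx arrays. Myl2 and Hoxd8 changed sign with the arrays included. Myl2 stood at 0.61 with all arrays and at -0.68 without controls 1 and 4, and Hoxd8 at 0.17 and -0.70 (adjusted p = 0.0336).

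Protein breakdown by the proteasome showed no calls in the constitutive subunits, 0 of 27 with log2 differences of -0.47 to 0.24, and 5 at an unadjusted p under 0.05. The interferon-induced subunit Psmb9 was higher at 374 ± 41.6 against 164 ± 130.3 (adjusted p = 0.0261, lost in 5 of the 10 fits without 1 array), and Psmb8 stood at 0.72 (0.141, and 0.0195 without controls 1 and 4). Of 24 genes of ubiquitin conjugation and autophagy 3 fell and none rose, all of them conjugating enzymes: Ube2b 1.62-fold, Ube2d3 1.46-fold and Ube2g1 1.45-fold (adjusted p = 0.00356, 0.0138 and 0.0199). Ube2g1 was lost without mdx 3. There were 3 rises without control 1, and without controls 1 and 4 there were 3 rises (Gabarap, Foxo3 and Isg15) and 4 falls.

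Small families that moved together were noticed after the values were seen, and their counts are descriptions. Art1, Art3 and Art5, surface ADP-ribosyltransferases, were lower by 1.53-fold, 1.62-fold and 1.52-fold (adjusted p = 0.0274, 0.0108 and 0.0285), of which Art3 passed without controls 1 and 4, while Art1 and Art5 stood at 0.129 and 0.0769 and were lost in 5 and 6 of the 10 fits without 1 array. All 3 Itm2 genes, small membrane proteins, rose: Itm2a 1.79-fold, Itm2b 1.78-fold and Itm2c 2.07-fold. Of 6 genes of 14-3-3 adaptor proteins Ywhaz and Ywhah rose 2.13-fold and 2.01-fold (adjusted p = 0.000565 and 0.00509), and Ywhaq 1.7-fold (0.0324, lost in 6 of the 10 fits without 1 array). Coro1a, Coro1b and Coro1c, coronins that turn over actin, rose 3.91-fold, 1.75-fold and 5.87-fold on floored log2 values. The inhibitory G protein subunits Gnai2 and Gnai3 rose 1.68-fold and 1.89-fold (0.0013 and 0.00596).

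Some of the largest falls lay outside the groups above. Cmbl, a hydrolase, read 7038, 4199, 3867, 5674 and 4105 in controls and 1550.2, 2200.3, 1359.9, 1894 and 1517 in mdx arrays, 2.88-fold lower (adjusted p = 0.000119). Pcp4l1, a small calmodulin-binding protein, fell 2.72-fold (0.000106), Cryz, a quinone reductase, 2.62-fold (0.00376), Gdap1, a protein of the mitochondrial outer membrane, 2.95-fold (0.00765), Hipk2, a nuclear kinase, 2.81-fold (0.00987) and Ap1g2, a clathrin adaptor subunit, 2.77-fold (0.00321). All of these also passed without controls 1 and 4. The largest fall of all, in Rpl41 of the ribosomal protein list, read 14498, 3605, 3940.3, 3997 and 11489 against 1376, 646, 162, 336 and 1228 (11-fold lower, adjusted p = 0.00118); its probe set is of the kind that can match several genes, ribosomal genes have many processed copies, and the spread within each group was wide, so it is uncertain. Erdr1 (3.7-fold lower, 2.07e-05) was read by a probe set of the same kind, and its second probe set gave a log2 difference of -0.19 (adjusted p = 0.453).

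Changes under 2-fold made up most of the falls: 328 of 371 falls were under 2-fold, against 243 of 619 rises. Among falls between 0.3 and 1 on the log2 scale, those with the smallest adjusted p included a probe set of Fmc1, a mitochondrial assembly factor (log2 -0.98, adjusted p = 0.000192), and Ppm1a, a phosphatase that ends stress and growth factor signals, which read 2377, 2390.3, 2119.5, 2181 and 2464 in controls and 1436, 1368, 1194, 1272 and 1370.0 in mdx arrays (1.74-fold lower, adjusted p = 0.000211), with Tcea3, an elongation factor of muscle (1.94-fold), Adssl1, Hk2, Laptm4b (1.68-fold), Tmem150a (1.81-fold) and Wnk2. The moderate rises with the smallest adjusted p included Ctsb, Il10rb (1.93-fold), the membrane protein Plp2 (1.93-fold), Nisch (1.61-fold), Selplg, the selectin ligand of leukocytes (1.96-fold), and Atp6v1a. Nisch (nischarin), an integrin-binding protein, had narrow groups, 1086 to 1322 in controls and 1753 to 1944 in mdx arrays. The brightest probe sets that rose were Actg1 (6502 ± 2287 to 12789 ± 1525), Col1a1 (5382 ± 2391 to 11656 ± 1731), Gnai2, Tmsb4x and Mt2, and the brightest that fell included Pfkm, Chchd10 (13504 ± 2732 to 8595 ± 873), Cox5b and Uqcrc1; Pfkm and Cox5b did not pass without controls 1 and 4 (0.0799 and 0.125).

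Rises outside the immune and matrix groups included Ankrd1, a stress-induced muscle ankyrin repeat protein (11.5-fold, adjusted p = 7.24e-06), Rrad, a GTPase that restrains calcium channels (4.94-fold, 1.46e-05), Csrp2, a LIM protein of immature smooth muscle (at least 7.64-fold, 0.000119), Nnmt, which methylates nicotinamide (3.9-fold, 0.000187), Dio2, which activates thyroid hormone (2.1-fold, 0.00631), and Hif1a, the oxygen-sensing factor (2.35-fold, 0.000128). In each of these 6 the mdx arrays lay above every control array, which for Ankrd1 and Csrp2 was a condition of the rule that named them. Rrad, Nnmt, Dio2 and Hif1a were named after their values were seen.

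The immune and matrix lists, the best known part of the response, are given by their counts. Of 10 genes of class II antigen presentation 7 rose, of 11 of class I presentation 4 (2 without control 2 or mdx 3), of 26 cytokine and receptor genes 6, and of 17 interferon-induced genes 3. Of 20 collagens 9 rose, of 14 genes of collagen processing 4, and of 16 integrin and basement membrane genes 5 (2 without mdx 4 or mdx 5). Of 21 chromatin genes 4 rose (19%, against 10.2% of all genes) and 1 fell (4.76%, against 6.11%). Of 43 kinase and phosphatase genes 5 rose (11.6%) and 2 fell (4.65%), and of 26 translation factors 3 rose (11.5%) and 1 fell (3.85%). Of 21 heat shock genes 2 rose (9.52%) and 3 fell (14.3%), and of 27 solute carriers 1 rose (3.7%) and 4 fell (14.8%). Of 8 calpains 1 rose and 1 fell, and of 16 homeobox and other position genes none passed. Leaving out single arrays moved the counts of the chromatin, kinase, translation, heat shock and solute carrier lists by more than 1.5 times.

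Probe sets of a gene usually moved the same way, with exceptions. Sdcbp (syntenin) had a probe set at a log2 difference of -1.33 (adjusted p = 0.015), another at a log2 difference of 1.72 (adjusted p = 0.000756) and the brightest at -0.30; the former pair passed in opposite directions, and no direction is given for the gene. Egfr rose on its brightest probe set (2.1-fold, adjusted p = 0.0215, lost without control 2, mdx 3 or mdx 4) and stood at a log2 difference of -0.10 (adjusted p = 0.881) on the other. Col1a1 rose on the brighter (2.39-fold) and stood at a log2 difference of 0.12 (adjusted p = 0.724) on the second.

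**Figure D5:**
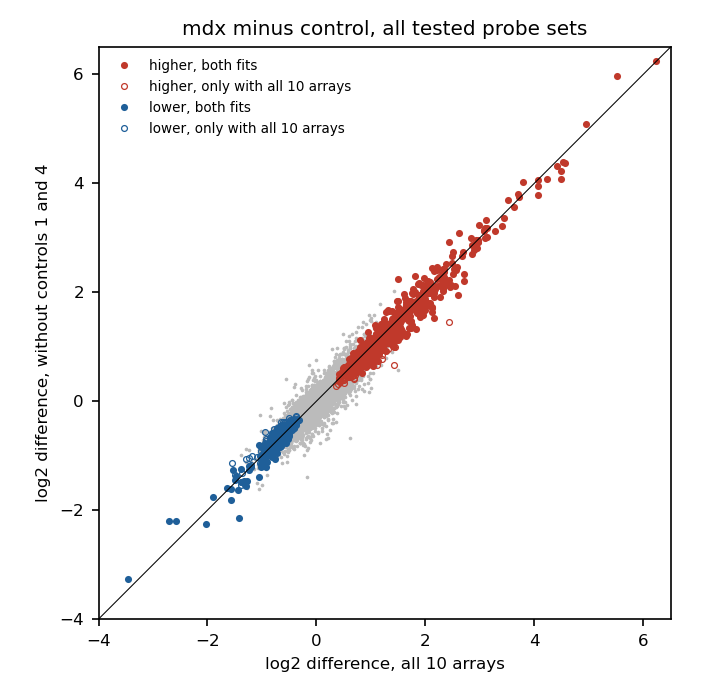
The log2 difference (mdx minus control) of the 6408 tested probe sets with all 10 arrays (x axis) and without controls 1 and 4 (y axis); filled points passed 5% in both fits, open points only with all arrays, and the line marks equal values. Rises of 1 log2 unit and more stay close to the line and most keep their calls, and most open points lie among smaller changes.

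Without controls 1 and 4, 860 probe sets passed (13.4%), 582 higher (9.08%) and 278 lower (4.34%). Of the 990 called with all arrays 738 were called again, each in the same direction, 527 higher and 211 lower. The falls lost more: 160 of 371 did not pass, all still below 0, and 67 others did, whereas 92 of 619 rises were lost and 55 gained. Leaving out 2 of 5 controls also lowers the power of the test, so a lost call does not show that the difference came from those arrays.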

How the data were processed

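The 10 leg arrays and 10 arrays of extraocular muscle of the series were single-colour Affymetrix arrays. The authors deposited 1 linear intensity value per probe set and array, per the series' value table; all 20 arrays had the same trimmed mean, which shows that the deposited intensities had been scaled, and their software is not stated in the labels or the table. Control probe sets were left out. Each array was rescaled to a trimmed mean of 500 (2% trimmed), values under 50 were set to 50, and log2 was taken. Probe sets at 200 or more on at least 5 of the 10 arrays were tested with limma (version 3.58.1 in R 4.3.3, moderated with a trend on mean intensity), on the 10 leg arrays alone, with Benjamini-Hochberg adjustment over 6408 probe sets and a threshold of 5%. Folds are antilogs of the difference of mean log2 values; where an array of the dimmer group lay under the floor, "at least" marks a fold that the ratio of mean signals also reaches, and "on floored log2 values" one that it does not. Means ± SD are of unfloored scaled signal.

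Gene names come from the platform annotation; a gene is read by its brightest tested probe set with 1 symbol. Genes and lists are described by counts beside those over all genes, with no set test. The members and lists were chosen with earlier results of these data known. Genes were named by rule: the 30 largest falls and 30 largest rises with separate groups, the 12 moderate changes in each direction with the smallest adjusted p, the 10 brightest in each direction, members of the lists with the smallest adjusted p, and Dmd and Utrn. The planned limit of 6 members per list was passed for the larger lists, where further members were named after their values were seen, as were genes outside every list and rule. Promoter windows are the 250 bases before each RefSeq start (GRCm38.p6).

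Precision is limited by the number of arrays. Data were simulated with the spread of these arrays and with 200 of 6408 probe sets changed. The test recovered 25.8% of 1.5-fold, 67.0% of 2-fold and 95.6% of 4-fold changes, with 4.37% false calls. With each group's own spread it recovered 26.2%, 66.8% and 95.0%, with 6.45% false calls, above the 5% aimed at. In the data themselves 15.4% of probe sets passed, so recovery there may differ from these rates. Alternatives tried were quantile normalization, no rescaling of the deposited values, other floors, a pseudocount, no filter and a stricter one, no trend, array weights, all 20 arrays, the replicate number as a block, the mean of a gene's probe sets, and leaving out each array or controls 1 and 4.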

Additional observations from a re-analysis of the deposited data

Results flagged for a closer look

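Among 500 sets of 5 arrays (250 genes named in the text or figures, in 2 groups), 39 held 1 array far from the other 4 by Dixon's 95% criterion; chance alone sets apart about 1 in 20 such sets. Control 1 was that array in 15 sets, mdx 5 in 9, mdx 3 in 5 and control 4 in 4. Values are scaled signal, with that of the nearest other array of the group after it.

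Array control 1 was high for Atf4 (8277 against 6870.4), Eci1 (6526 against 4404), Lpl (7258 against 3706), Mt1 (2013 against 1039.6), Peg3 (663 against 464), Psmb8 (1409 against 562) and Timm8b (2636 against 2395). Array control 1 was low for Alas1 (3731 against 5329), Anxa1 (506 against 819.9), Anxa5 (951 against 2133), Apoe (253 against 1419), Aqp4 (1221 against 2609.5), Coro1b (304 against 523), Ndufs4 (376 against 598) and Pdgfra (676 against 1235). Array control 4 was high for Adcy2 (2952 against 1823) and Ap1g2 (315 against 239). Array control 4 was low for Hoxd8 (94.9 against 737) and Myl2 (45.2 against 8608). Array control 2 was high for Gdap1 (519 against 362). Array control 3 was high for Mcm5 (417 against 144). Array control 3 was low for Clcn2 (169 against 236). Array mdx 5 was high for Anxa2 (8134 against 5321), Azin1 (2539 against 1967) and Oxct1 (2588 against 2348). Array mdx 5 was low for Adcy2 (255 against 1090.3), Capn3 (1432 against 2659), Cfl2 (2711 against 4412), Eci1 (2329 against 2808), Gnpat (660.5 against 1069) and Hoxd8 (504 against 762). Array mdx 3 was high for Pgd (1269 against 912). Array mdx 3 was low for Chrna1 (1020.2 against 1165), Ctsd (2044 against 5919), Lcp1 (1134 against 1636) and Mstn (345 against 629). Array mdx 1 was high for Gadd45a (1709.6 against 849) and Myf6 (3467 against 1890.4). Array mdx 4 was low for Dlk1 (359.8 against 631). The genes for which control 1 was apart held both muscle and other genes, and the results above are given with and without it where the call changed.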

How the results depend on the processing

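The number of probe sets past 5% was 990 with the settings used and between 811 and 1240 under the other settings that kept all 10 leg arrays (811 with a filter at 500, 1240 with all 20 arrays as 4 groups). Rises ranged from 451 to 724 and falls from 292 (no filter) to 516 (all 20 arrays). Leaving out single arrays gave 741 to 974 in all, 507 to 629 rises and 234 to 345 falls, the fewest falls being 234 without mdx 3 and 242 without mdx 5. Reversals were limited to Hoxd8, at -0.70 (adjusted p = 0.0336) without controls 1 and 4 against 0.17 with them, and Myl2, at -0.96 (adjusted p = 0.0434) without control 4 against 0.61 (-0.96 to 1.21 over single omissions). The labels do not say that replicate numbers pair the arrays, and they were not taken as pairs because not every correlation of same-numbered arrays' deviations was over 0.1 (0.025 to 0.208, all above 0); 7 of 10 arrays correlated best with their own number, a hint of pairing from the data. With the replicate block 1072 probe sets passed, 660 higher and 412 lower. Of 250 single-gene results, the floors, pseudocount and deposited values ended at most 2 calls, no filter ended 28, and leaving out controls 1 and 4 ended 19. Leaving out 1 array ended from 3 calls (mdx 1) to 21 (mdx 3). The cause of these changes was not tested. The number of arrays limits the detection of changes under 2-fold, and signals under 200 were not tested.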
